A study of Rattus norvegicus with 6 samples.

Results

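CpG methylation in the hippocampus was described in 3 short windows of the rat genome, on chromosomes 14, 1 and 8, in 1 rat hippocampus library from B[a]P gavage and 1 from corn oil gavage. The windows were chosen from the clusters of methylation differences seen between these same libraries, so the size and direction of the differences within them are descriptions, and no test of them is given. A member was any CpG cytosine inside the bounds with at least 10 reads in each library. The bounds were positions 47849000 to 47859999 on chromosome 14, 151960000 to 151979999 on chromosome 1 and 76670000 to 76679999 on chromosome 8, all in build rn5. They held 56, 345 and 83 members, which makes 484 of the 1215420 CpG sites shared by the libraries. No gene annotation or genome of build rn5 was used here, so the windows are named by position only and no sequence is shown.

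The B[a]P group received benzo[a]pyrene dissolved in corn oil at 2.0 mg/kg by daily oral gavage, and the control group received the same volume of corn oil alone. All samples came from Sprague-Dawley rats with a labelled age of 7 weeks. The labels of the RNA-seq libraries give 7 weeks of gavage, and those of the methylation libraries give no length. Each group had 1 library for each of 3 assays (reduced representation bisulfite sequencing, RNA-seq and miRNA-seq), and no label states if 1 animal served all assays or if tissue was pooled. With 1 library per group there is no replicate error, so every interval below covers the counting of reads only.

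Methylation of cytosine in mammalian DNA is found mainly at CpG dinucleotides. A CpG reads the same on either strand, so it has a cytosine on each, and the maintenance methyltransferase DNMT1 copies the mark to the newly made strand after replication. Neighbouring CpGs in dense clusters tend to share their state, and promoter CpG islands are mostly unmethylated in brain as in other tissues. Benzo[a]pyrene, a polycyclic aromatic hydrocarbon formed in combustion, is metabolised to a diol epoxide that forms adducts mainly on guanine. Reduced representation bisulfite sequencing cuts DNA at CCGG sites and reads the fragment ends, where unmethylated cytosines are converted and read as thymine, so coverage comes in short CpG-rich pieces that many reads share from end to end.

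The B[a]P library held 1441423 CpG cytosines with a median of 47 reads, and the control library 1251142 with a median of 72 reads. At the shared sites the medians were 57 reads in B[a]P and 74 reads in control, and the summed methylation level (methylated reads over all reads) was 20.2% in B[a]P and 17.2% in control. The median difference over those sites was 0 percentage points. A site was called when Fisher's exact test of its reads, adjusted over all 1215420 sites by Benjamini-Hochberg, fell under 0.05 and its level differed by at least 25 points; this compares the reads of these libraries, not the conditions. By that rule 0.0691% of all shared sites were called higher in B[a]P and 0.0784% lower. The hippocampal label was checked in the RNA-seq libraries, since bisulfite reads carry no expression. The 4 neuronal markers summed to 696 FPKM in B[a]P and 569 FPKM in control. The 6 hippocampal subfield markers summed to 213 FPKM in B[a]P and 201 FPKM in control, with 2 of them (Wfs1 and Pou3f1) lower in B[a]P. The 3 astrocyte markers summed to 595 FPKM in B[a]P and 456 FPKM in control. The 3 oligodendrocyte markers summed to 794 FPKM in B[a]P and 929 FPKM in control, with 2 of them lower in B[a]P. All 12 markers of choroid plexus epithelium, the tissue of the ventricles that abuts the hippocampus, were lower in B[a]P, with a sum of 65.9 FPKM in B[a]P and 3438 FPKM in control, and none was at 0. Its defining gene Ttr, which encodes transthyretin, was at 60.5 FPKM in B[a]P and 3300 FPKM in control. Among the 12, Otx2 was close to 0 in both libraries, at 0.0069 FPKM in B[a]P and 0.018 FPKM in control, so its direction carries little weight. The part of tissue makeup in the methylation differences was not tested. In bulk DNA, a different share of cell types and a different level within 1 cell type cannot be told apart.

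In the chromosome 14 window, every measured CpG cytosine was more methylated in B[a]P. The 56 sites lay within 261 bp, from position 47849954 to position 47850214, and belonged to 30 CpGs. Summed over the window, 1516 of 3260 reads were methylated in B[a]P (46.5%, Wilson 95% interval 44.8% to 48.2%), against 522 of 6502 reads in control (8.03%, 7.39% to 8.71%). The difference was 38.5 points (Newcombe 95% interval 36.6 to 40.3). Because neighbouring sites are counted in the same reads, these summed intervals are too narrow. Of the 56 sites, 48 were called higher in B[a]P (85.7%) and 0 lower, beside the 0.0691% called higher and 0.0784% called lower over all shared sites; the window was picked for that contrast, so nothing is read from the comparison.

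The 2 ranges of site levels on chromosome 14 did not meet. Single sites ranged from 27.1% to 65.5% in B[a]P, with a median of 45.5%, and from 1% to 19.2% in control, with a median of 7.26%. The smallest site difference was 23.2 points, the median 37.2 and the largest 52.9. All 56 sites differed by at least 20 points, 49 by at least 30 points and 21 by at least 40 points. Methylation in B[a]P was therefore intermediate along the whole stretch, and no site in either library came near full methylation.

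**Figure D1:**
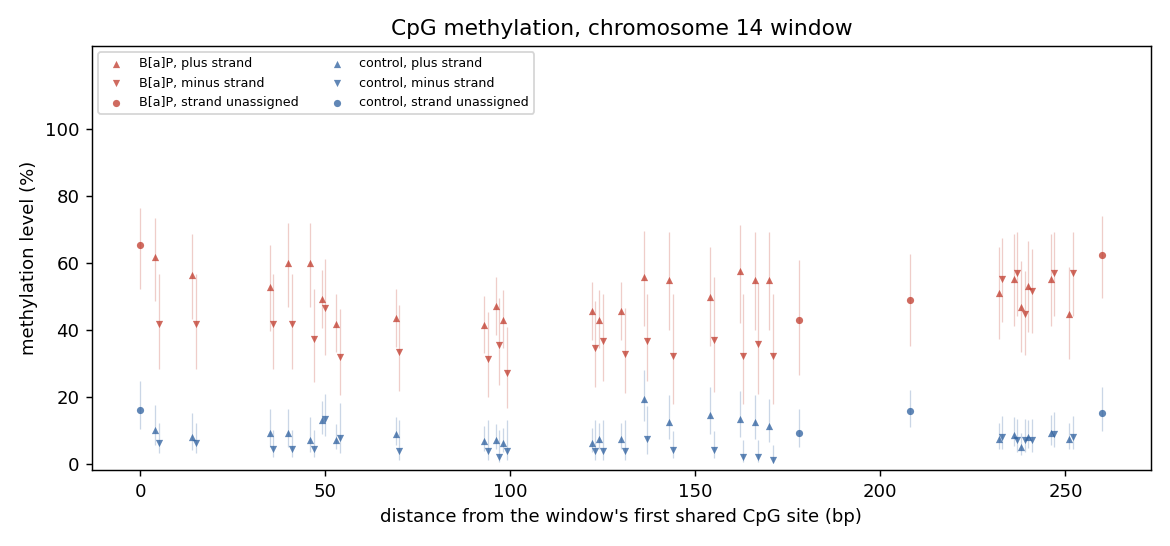
Methylation level (percent of reads) at each of the 56 shared CpG cytosines of the chromosome 14 window against distance from the first site (bp), with 1 point per site, B[a]P and control as separate colours, marker shape for the inferred strand, and bars for the Wilson 95% counting interval. All B[a]P points, 27.1% to 65.5%, lie above all control points, 1% to 19.2%.

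The profile along the chromosome 14 window was uneven in both libraries. At the first site, 47849954, 36 of 55 reads were methylated in B[a]P (65.5%) and 16 of 99 in control (16.2%). At the last, 47850214, 35 of 56 reads were methylated in B[a]P (62.5%) and 17 of 113 in control (15%). These end sites thus had higher levels than the window as a whole in each library. The site with the widest difference was 47850000, with 33 of 55 reads methylated in B[a]P (60.0%) and 7 of 99 in control (7.07%). It was followed by 47849958, with 34 of 55 reads in B[a]P (61.8%) and 10 of 99 in control (10.1%), and by 47849994, with 33 of 55 reads in B[a]P (60.0%) and 9 of 99 in control (9.09%). These 3 sites lay close together near the start of the window and had the same read number in each library.

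Towards the other end, site 47850191 had 32 of 56 reads methylated in B[a]P (57.1%) and 8 of 114 in control (7.02%), and site 47850206 had 32 of 56 in B[a]P (57.1%) and 9 of 114 in control (7.89%). The deepest site, 47850003, had 61 of 124 reads methylated in B[a]P (49.2%) and 24 of 184 in control (13%). Its difference of 36.2 points was close to the window's median of 37.2. Of the 48 called sites, 7 stood alone or in shorter groups and the rest formed 4 unbroken runs of at least 5 sites. The runs covered positions 47849954 to 47850007 (14 sites, 49.9% in B[a]P and 8.56% in control), 47850076 to 47850084 (5 sites, 42.8% in B[a]P and 6.41% in control), 47850108 to 47850125 (8 sites, 46.1% in B[a]P and 7.49% in control) and 47850162 to 47850214 (14 sites, 53.1% in B[a]P and 8.66% in control). The 8 sites that were not called had 28 to 49 reads in B[a]P; each was higher in B[a]P, by 23.2 to 33.8 points.

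Both strands carried the difference on chromosome 14. No column of the files gives the strand, so it was inferred from neighbouring positions: of adjacent CpG cytosines, the lower was taken as the plus strand and the upper as the minus strand. For the 26 CpGs with both cytosines measured, the plus strand summed to 48.7% in B[a]P and 8.77% in control, and the minus strand to 41.2% in B[a]P and 5.57% in control. Both cytosines were called in 19 of the 26 CpGs and 1 of them in the other 7; all 26 plus cytosines and 19 of the minus cytosines were called. The strands were unequal in the same direction in each library, since the plus cytosine was the more methylated one in 22 CpGs in B[a]P and in 21 in control. The median gap between plus and minus was 11.3 points in B[a]P and 3.10 points in control.

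The CpG with the widest summed difference, at 47850190 and 47850191, had like levels on its strands. Its plus cytosine had 26 of 47 reads methylated in B[a]P (55.3%) and 14 of 164 in control (8.54%). Its minus cytosine is the site at 57.1% in B[a]P and 7.02% in control given above. By contrast, the CpG at 47849994 and 47849995 had 60.0% on the plus strand and 41.9% on the minus strand in B[a]P, against 9.09% on the plus strand and 4.42% on the minus strand in control. In B[a]P the strands of this CpG were thus unequal, while those of the first were alike.

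Sites read at nearly the same depth on 1 strand were grouped into stretches, which may come from shared fragments, though no fragment data were used. Levels within a stretch still varied. The 6 minus sites from 47849959 to 47850004 ran from 37.2% to 46.5% in B[a]P and from 4.42% to 13.3% in control. On the plus strand the 5 sites from 47849958 to 47850000 had 29 to 34 of 55 reads methylated in B[a]P (58.2% summed) and 7 to 10 of 99 in control (8.69%). The next 9 plus sites, from 47850003 to 47850084, had 122 to 124 reads in B[a]P at 44.5% and 178 to 184 reads in control at 7.75%. Along the same stretch the 8 minus sites from 47850008 to 47850085 had 47 to 49 reads in B[a]P at 32.9% and 52 reads in control at 4.09%. This minus stretch held 5 of the 8 sites that were not called, and was the shallowest in control.

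In the last stretches, 6 plus sites from 47850186 to 47850205 summed to 51.1% in B[a]P and 7.48% in control, and 6 minus sites from 47850187 to 47850206 to 53.9% in B[a]P and 7.60% in control. Across the 8 stretches of at least 4 sites, the B[a]P level ran from 32.9% to 58.2% and the control level from 2.60% to 12.8%. The difference was therefore present in each of these stretches, at 28.8 to 49.5 points.

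At all 56 sites of the chromosome 14 window, B[a]P was the shallower library. Its depth ran from 27 to 124 reads with a median of 48, against 52 to 184 reads with a median of 112.5 in control. Depth in B[a]P over depth in control had a median ratio of 0.491 (range 0.27 to 0.942), below the 0.865 over all shared sites. The part of this low depth in the level difference was not tested. No shared CpG site lay within 10 kb of either bound, so the flanking methylation is known only from farther away. The nearest site before the window, 15118 bp from its bound at 47833882, had 21 of 21 reads methylated in B[a]P and 11 of 11 in control (100% in each), and the nearest after it, 106179 bp away at 47966178, had 90 of 109 reads in B[a]P (82.6%) and 69 of 84 in control (82.1%). The levels at these outside sites were alike in the libraries.

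In the chromosome 1 window, most CpG cytosines were less methylated in B[a]P, in each of the separate clusters that were measured. Its 345 sites spread over 9941 bp, from position 151966536 to position 151976476. Summed over the window, 6621 of 32663 reads were methylated in B[a]P (20.3%, 19.8% to 20.7%), against 16125 of 43550 reads in control (37.0%, 36.6% to 37.5%). The difference was -16.8 points (-17.4 to -16.1). The level was lower in B[a]P at 339 sites and higher at 6. Of the 345 sites, 51 were called lower (14.8%) and 0 higher, beside the shares over all shared sites given above, which again are not read as a result.

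Site levels ranged from 3.03% to 49.4% in B[a]P, with a median of 18.6%, and from 10% to 81.5% in control, with a median of 38.2%. The ranges overlapped, unlike those on chromosome 14. The site difference ran from -53.3 to 4.98 points with a median of -17.7. The level in B[a]P was lower by at least 10 points at 272 sites, by at least 25 points at 99 and by at least 40 points at 25. At the 6 sites that were higher in B[a]P the gap was small: the largest, at 151970434, had 15 of 35 reads methylated in B[a]P (42.9%) and 25 of 66 in control (37.9%).

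**Figure D2:**
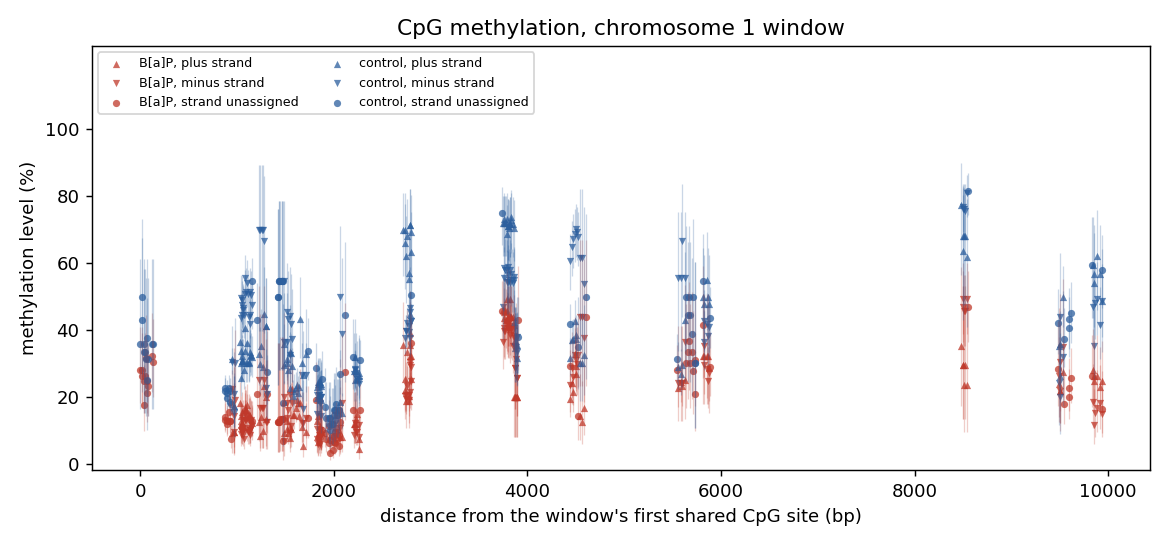
Methylation level (percent of reads) at each of the 345 shared CpG cytosines of the chromosome 1 window against distance from the first site (bp), with 1 point per site, B[a]P and control as separate colours, marker shape for the inferred strand, and bars for the Wilson 95% counting interval. The B[a]P points lie below the control points at 339 sites, in all 10 clusters, and no B[a]P point exceeds 49.4%.

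The chromosome 1 sites formed 10 clusters, taken as groups separated by more than 100 bp without a shared site, and the summed level was lower in B[a]P in each of them. In the largest cluster, from 151967960 to 151968809, 102 sites summed to 11.4% in B[a]P and 24.9% in control, and no site was called. The next largest, from 151967409 to 151967848, had 71 sites at 12.8% in B[a]P and 32.9% in control, with 20 called lower. These neighbouring clusters were the least methylated of the 10 in both libraries.

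The middle of the window was more methylated. From 151969249 to 151969337, 24 sites summed to 25.2% in B[a]P and 44.6% in control, with 5 called lower, and from 151970272 to 151970434, 46 sites summed to 41.0% in B[a]P and 56.9% in control, with 9 called lower. From 151970976 to 151971139, 22 sites summed to 26.3% in B[a]P and 46.9% in control, with 7 called lower. In these clusters the difference ran from -20.6 to -15.9 points.

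The highest cluster in either library, from 151975019 to 151975090, had 12 sites at 43.9% in B[a]P and 76.6% in control, with 6 called lower. The last, from 151976372 to 151976476, had 14 sites at 20.7% in B[a]P and 50.0% in control, with 4 called lower. They showed the widest summed differences of the window, -32.7 points and -29.3 points. In the remaining 3 clusters no site was called: 12 sites from 151966536 to 151966669 summed to 26.1% in B[a]P and 35.4% in control, 29 sites from 151972077 to 151972417 to 27.7% in B[a]P and 38.9% in control, and 13 sites from 151976016 to 151976147 to 23.6% in B[a]P and 38.9% in control. The order of the clusters from low to high was thus not the same in the libraries: the last cluster was among the lower ones in B[a]P and the third highest in control.

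Among called sites, the widest difference was at 151969276, with 13 of 59 reads methylated in B[a]P (22%) and 35 of 50 in control (70%). Its neighbour at 151969280 had 11 of 59 reads in B[a]P (18.6%) and 31 of 50 in control (62.0%). At 151967641, 17 of 161 reads were methylated in B[a]P (10.6%, 6.70% to 16.3%) and 101 of 187 in control (54.0%, 46.9% to 61.0%). This last site had more reads than 151969276 and 151969280. It was listed for its wide difference, so the gap between its intervals is a description. Nearby, 151967695 had 20 of 158 reads in B[a]P (12.7%) and 101 of 185 in control (54.6%), and 151967644 had 15 of 161 in B[a]P (9.32%) and 95 of 187 in control (50.8%). The last site of the window, 151976476, had 10 of 61 reads in B[a]P (16.4%) and 44 of 76 in control (57.9%). The deepest site, 151967409, differed little: 30 of 229 reads were methylated in B[a]P (13.1%) and 111 of 510 in control (21.8%). The widest differences of all, -53.3 points at 3 sites from 151967773 to 151967805, each rested on 12 reads in B[a]P and 10 in control and were not called.

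On chromosome 1 no CpG was called on both of its cytosines. Of the 126 CpGs with both cytosines measured, 46 had 1 cytosine called lower and 80 had none. Over these CpGs the plus strand summed to 20.9% in B[a]P and 36.5% in control, and the minus strand to 21.6% in B[a]P and 42.8% in control, with 13 plus and 33 minus cytosines called. In B[a]P the strands of 108 CpGs were within 10 points of each other, and in control those of 44.

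The strand that differed more changed from cluster to cluster. In the cluster that starts at 151967409, the minus cytosines of paired CpGs summed to 11.5% in B[a]P and 44.7% in control and 19 of 29 were called, whereas the plus cytosines summed to 13.6% in B[a]P and 31.5% in control and 0 were called. In the cluster that starts at 151969249 the plus cytosines were the called ones, at 27.5% in B[a]P and 63.5% in control, beside 23.4% in B[a]P and 41.3% in control on the minus strand. In the cluster that starts at 151970976 it was again the minus strand, at 29.7% in B[a]P and 66.5% in control, beside 24.0% in B[a]P and 36.8% in control on the plus strand. In these 3 clusters the summed strands of the B[a]P library were close together, and those of the control library were far apart. Single CpGs could depart from this. At 151971103 and 151971104 the plus cytosine was at 12.5% in B[a]P and 30.2% in control. The minus cytosine there, with 16 reads in B[a]P, was at 43.8% in B[a]P and 61.5% in control. In the cluster that starts at 151975019, by contrast, the minus strand had 47.3% in B[a]P and 77.1% in control, and the plus strand 27.1% in B[a]P and 66.1% in control, so both strands were lower in B[a]P by a wide margin. The largest cluster, which starts at 151967960, had like strands in both libraries. Its plus cytosines summed to 11.3% in B[a]P and 26.5% in control, and its minus cytosines to 10.5% in B[a]P and 25.1% in control.

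Single CpGs varied as the clusters did, with strands further apart in control or, at 151975075, further apart in B[a]P. The plus cytosine at 151969276 is the site at 22% in B[a]P and 70% in control given above; its minus partner at 151969277 had 44 of 228 reads methylated in B[a]P (19.3%) and 153 of 386 in control (39.6%). At 151967621 and 151967622 the plus cytosine had 31 of 182 reads in B[a]P (17.0%) and 87 of 215 in control (40.5%), and the minus cytosine 24 of 161 in B[a]P (14.9%) and 104 of 187 in control (55.6%). At 151975075 and 151975076, the CpG with the widest summed difference, the plus cytosine had 4 of 17 reads in B[a]P (23.5%) and 13 of 21 in control (61.9%), and the minus cytosine 39 of 79 in B[a]P (49.4%) and 119 of 147 in control (81.0%). In this CpG the plus strand was too shallow to be called. Both cytosines were lower in B[a]P in each of these 3 CpGs.

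Groups of sites with shared depth gave the same strand split over longer stretches. The 19 minus sites from 151967574 to 151967690 had 159 to 161 reads in B[a]P at 10.5% and 186 to 187 reads in control at 48%, and all 19 were called. The 20 plus sites from 151967569 to 151967689, which overlie them, had 180 to 182 reads in B[a]P at 14% and 214 to 216 reads in control at 32.0%, and 0 were called. Depth was thus similar on these strands, and the control levels were not. The 7 minus sites from 151970980 to 151971054 had 74 to 77 reads in B[a]P at 29.0% and 127 to 128 reads in control at 67.0%, while 6 plus sites from 151970979 to 151971042 had 150 reads in B[a]P at 25.6% and 252 to 253 reads in control at 37.3%. The 16 plus sites from 151970281 to 151970392 summed to 44.8% in B[a]P and 71.8% in control. Of the stretches of at least 4 sites in this window, the closest levels were 28.3% in B[a]P and 30% in control, over 4 minus sites from 151976031 to 151976074. These 4 held 3 of the 6 sites that were higher in B[a]P.

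Depth on chromosome 1 was spread widely and did not favour 1 library throughout. It ran from 12 to 229 reads in B[a]P, with a median of 74, and from 10 to 510 reads in control, with a median of 95. B[a]P was the deeper library at 132 of the 345 sites, and the median depth ratio of 0.861 was close to the 0.865 over all shared sites. Under 20 reads were found at 26 sites in B[a]P and at 46 in control, where a single level has a wide interval. At 12 sites in the first cluster the control had 14 to 16 reads and B[a]P 56 to 57. No shared CpG site lay within 10 kb of either bound. The nearest before it, 11757 bp away at 151948243, had 76 of 96 reads methylated in B[a]P (79.2%) and 69 of 98 in control (70.4%), and the nearest after it, 35256 bp away at 152015255, had 1 of 40 in B[a]P (2.5%) and 2 of 20 in control (10%).

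In the chromosome 8 window, the called sites were limited to a short stretch of a CpG-dense region. The control library was almost unmethylated there, inside the stretch as well as outside it. The 83 sites lay within 599 bp, from position 76675447 to position 76676045. Summed over the window, 591 of 7437 reads were methylated in B[a]P (7.95%) and 178 of 11922 in control (1.49%), a difference of 6.45 points (5.82 to 7.12). The level was higher in B[a]P at 39 sites, lower at 19 and equal at 25. Of the 83 sites, 15 were called higher (18.1%) and 0 lower, beside the shares over all shared sites given above, from which nothing is read here. Site levels ran from 0% to 51.8% in B[a]P, with a median of 0.546%, and from 0% to 15.7% in control, with a median of 0%. The median site difference was 0 points, so the window's summed difference came from a minority of its sites.

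All 15 called sites lay within 76 bp, from 76675716 to 76675791, among 20 measured sites. Over these 20 sites, 430 of 1294 reads were methylated in B[a]P (33.2%, 30.7% to 35.8%) and 40 of 1933 in control (2.07%, 1.52% to 2.81%). Every one of the 20 was higher in B[a]P; in control 12 of them had no methylated read and in B[a]P 0 of them had none. This stretch was drawn around the called sites, so its level is again a description.

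**Figure D3:**
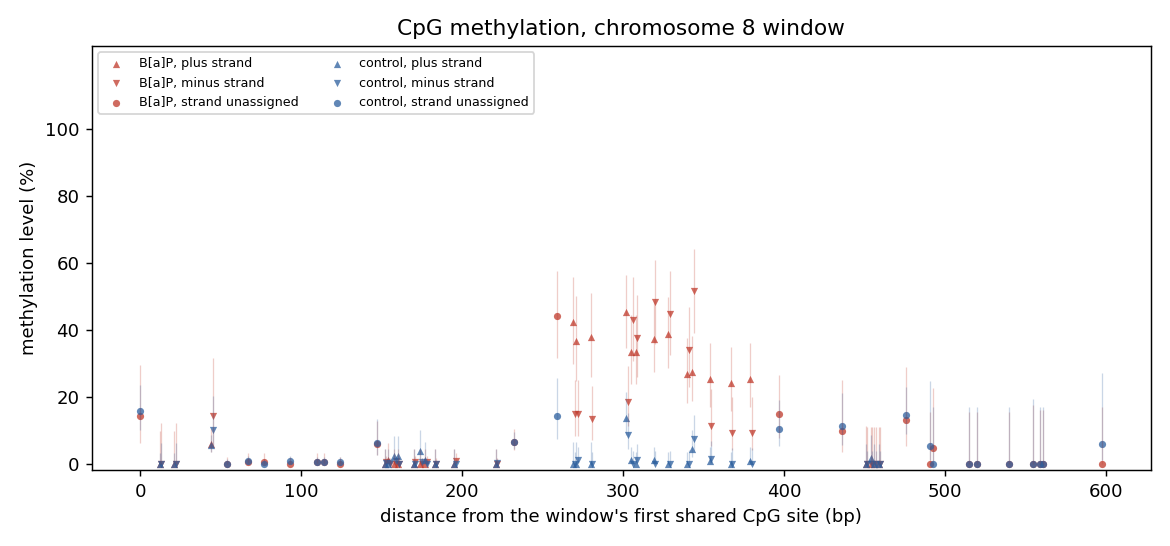
Methylation level (percent of reads) at each of the 83 shared CpG cytosines of the chromosome 8 window against distance from the first site (bp), with 1 point per site, B[a]P and control as separate colours, marker shape for the inferred strand, and bars for the Wilson 95% counting interval. B[a]P rises above control in 1 stretch of the window, up to 51.8%, while most other sites in each library lie near 0%.

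Inside the stretch on chromosome 8, 10 sites in a row from 76675752 to 76675788 were called, with 37.1% of reads methylated in B[a]P and 0.294% in control. The widest difference was at 76675767, with 27 of 56 reads methylated in B[a]P (48.2%) and 0 of 95 in control. That 0 allows a level of up to 3.16%. This limit, here and below, is 3 reads divided by the depth and is not a Wilson bound. At 76675776, 25 of 56 reads were methylated in B[a]P (44.6%) and 0 of 95 in control. At 76675753, 24 of 56 were methylated in B[a]P (42.9%) and 0 of 95 in control. These 3 minus cytosines had no methylated read in control and more than 40% in B[a]P. The highest B[a]P level of the window, at 76675791, was 29 of 56 reads (51.8%), with 7 of 94 in control (7.45%). At 76675775, 29 of 75 reads were methylated in B[a]P (38.7%) and 0 of 109 in control, and at 76675716, 22 of 52 in B[a]P (42.3%) and 0 of 57 in control, which allows up to 5.26%.

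The sites on either side of the stretch on chromosome 8 were not called. Before it, 37 sites from 76675447 to 76675706 summed to 1.40% in B[a]P and 1.23% in control. The last of these, 76675706, had 23 of 52 reads methylated in B[a]P (44.2%) and 8 of 56 in control (14.3%), so the raised B[a]P level reached at least 10 bp beyond the first called site. After the stretch, 26 sites from 76675801 to 76676045 summed to 9.44% in B[a]P and 2.17% in control. Of these the plus cytosines of paired CpGs summed to 16.1% in B[a]P and 0.512% in control, and the minus cytosines to 5.59% in B[a]P and 0.161% in control. Among them, the 4 plus sites from 76675898 to 76675906 and the 4 minus sites from 76675899 to 76675907 had no methylated read in B[a]P. The deepest site of the window, 76675606, had 0 of 232 reads methylated in B[a]P, which allows up to 1.29%, and 3 of 404 in control (0.743%).

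The strands of the stretch on chromosome 8 both carried the difference, with unequal size along its length. Over the 20 sites, the plus strand summed to 35.5% in B[a]P and 2.35% in control with 9 sites called, and the minus strand to 30.7% in B[a]P and 1.81% in control with 6 called. At its start the plus strand was the higher in B[a]P: at 76675716 and 76675717 the plus cytosine is the site at 42.3% in B[a]P and 0% in control, and the minus cytosine had 10 of 68 reads in B[a]P (14.7%) and 0 of 107 in control. Further along the order turned. At 76675766 and 76675767 the plus cytosine had 28 of 75 reads in B[a]P (37.3%) and 1 of 109 in control (0.917%), below the minus cytosine at 48.2% in B[a]P. At 76675790 and 76675791 the plus cytosine had 21 of 77 reads in B[a]P (27.3%) and 5 of 112 in control (4.46%), below the minus cytosine at 51.8% in B[a]P.

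Stretches of shared depth mark where that turn fell. The 4 minus sites from 76675717 to 76675750 had 68 to 70 reads in B[a]P at 15.3% and 107 reads in control at 2.34%, and 0 were called. The 6 minus sites that follow, from 76675753 to 76675791, had 56 reads in B[a]P at 43.2% and 94 to 95 reads in control at 1.41%, and all 6 were called. On the minus strand, then, a change of level in B[a]P coincided with a change of depth between positions 76675750 and 76675753. The 10 plus sites from 76675749 to 76675826 had 75 to 77 reads in B[a]P at 31.6% and 109 to 112 reads in control at 2.18%. Each of these 10 lay between 24.0% and 45.3% in B[a]P, so on the plus strand the raised level ran past the last called site. Minus sites past it, at 76675802, 76675815 and 76675827, had lower levels of 11.1%, 9.26% and 9.26% in B[a]P. Their control levels were 1.27%, 0% and 0%.

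Of the 30 CpGs with both cytosines measured on chromosome 8, 5 had both called, 5 had 1 called and 20 had none. The strands were within 10 points of each other in 21 CpGs in B[a]P and in all 30 in control. Depth ran from 18 to 232 reads in B[a]P, with a median of 68, and from 16 to 404 reads in control, with a median of 95; the median ratio was 0.636, and B[a]P was the deeper library at 20 sites. The 4 shared CpG sites within 10 kb after the bound, the nearest at 76682794, summed to 92.4% in B[a]P and 92.0% in control. The nearest site before it, 10639 bp away at 76659361, had 33 of 65 reads methylated in B[a]P (50.8%) and 10 of 23 in control (43.5%). The outside sites were thus much more methylated than the window in each library.

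**Figure D4:**
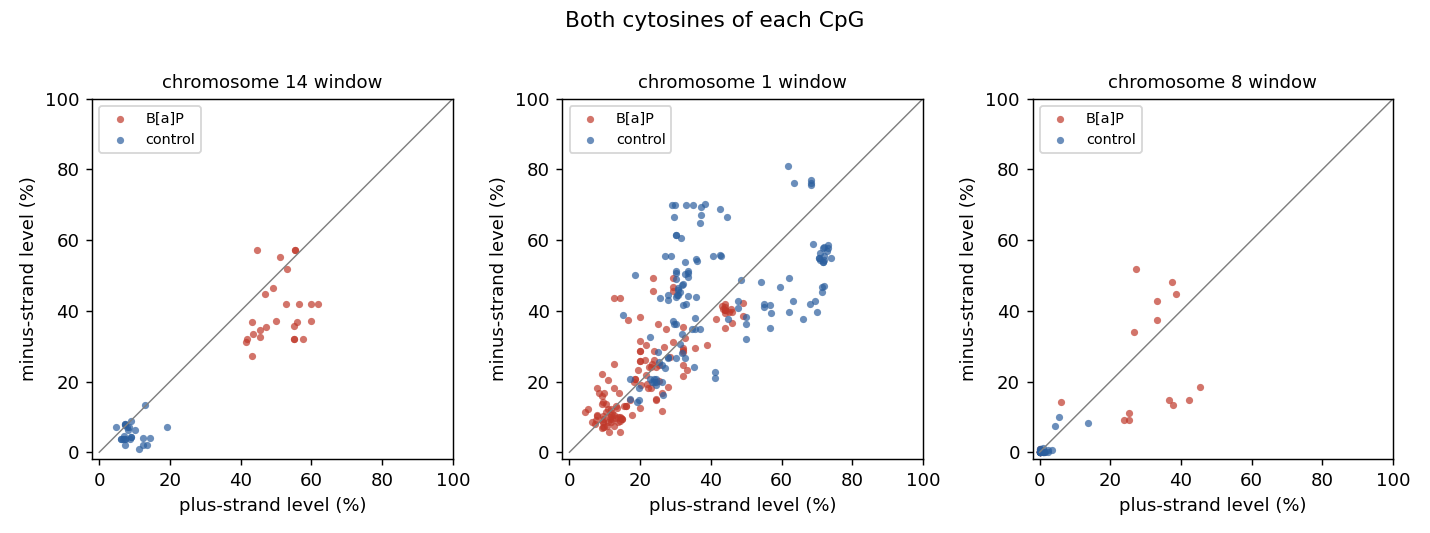
Methylation level of the plus cytosine (x axis, percent of reads) against that of the minus cytosine (y axis, percent of reads) for each CpG with both measured, in 26, 126 and 30 CpGs of the chromosome 14, 1 and 8 windows, with B[a]P and control as separate colours and the diagonal marking equal strands. On chromosome 1 the B[a]P points stay near the diagonal, with 108 of 126 CpGs within 10 points, and the control points scatter around it, with 44 of 126.

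Set side by side, the windows differed in strand profile. On chromosome 14 the strands were further apart in B[a]P, with 8 of 26 CpGs within 10 points in B[a]P and 21 of 26 in control. On chromosome 8 the order was the same, with 21 of 30 in B[a]P and 30 of 30 in control. On chromosome 1 it was the other way round, with 108 of 126 in B[a]P and 44 of 126 in control. By this cut of 10 points, the strands in every window were further apart in the library with the higher methylation level. Levels near 0% leave little room for a gap between strands, and shallow sites have less exact levels. The parts of level and depth in these gaps were not tested.

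**Figure D5:**
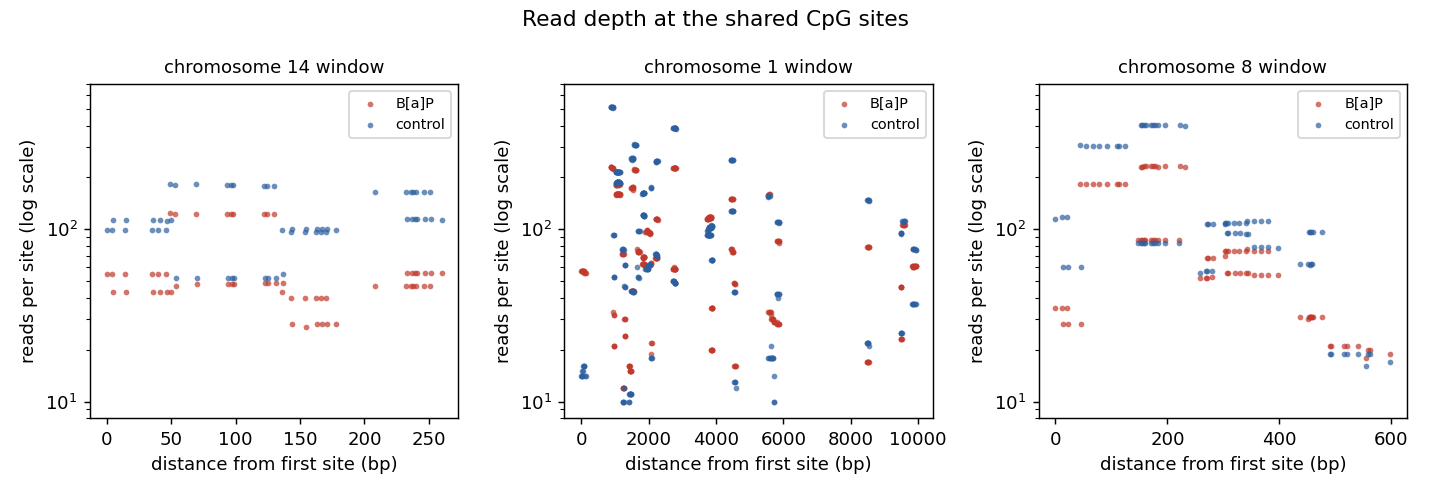
Reads per shared CpG site in the chromosome 14, 1 and 8 windows, plotted on a logarithmic axis against distance from the first site (bp), with 1 point per site and library. The B[a]P medians of 48, 74 and 68 reads lie below the control medians of 112.5, 95 and 95 reads.

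Cytosines outside CpG context, which the choice of windows did not use, were almost unmethylated in the windows in both libraries. On chromosome 14, 117 such cytosines summed to 0.432% in B[a]P (0.306% to 0.610%) and 0.365% in control (0.276% to 0.482%). On chromosome 8, 190 summed to 0.345% in B[a]P and 0.390% in control. On chromosome 1, 728 summed to 0.376% in B[a]P (0.329% to 0.431%) and 0.541% in control (0.488% to 0.598%). All nuclear chromosomes gave 0.646% in B[a]P and 0.665% in control, so each window was below the level of its library as a whole. The difference on chromosome 1 had the direction of the CpG difference there and lay mostly in the CHG context (cytosines followed by a base other than G, then by G), at 0.345% in B[a]P and 0.706% in control.

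Among tiles of 10 kb with at least 20 shared CpG sites, of which there were 13776, 1 held 20 or more sites called higher in B[a]P and 3 held 20 or more called lower. The single tile was that of the chromosome 14 window, which starts at 47850000 and held 39 called sites. Of the 3 others, 2 made up the chromosome 1 window, with 25 called sites in the tile from 151960000 and 26 in that from 151970000; the remaining tile lay elsewhere on chromosome 1. The chromosome 8 window did not reach 20. The windows were picked from clusters of differences between these same libraries, so their place among these tiles is a description. A median site difference of at least 10 points was found in 36 tiles upward and 17 downward, more tiles than the windows described. These counts include the chromosome 14 tile and the tiles of the chromosome 1 window. They do not measure how wide a difference was.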

How the data were processed

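Bisulfite tables list 1 cytosine per line. The authors' deposited table of each library gives counts of methylated and unmethylated reads and the percent methylated, and holds no cytosine under 10 reads. The deposited mRNA tables give FPKM values, a unit inferred from the values. The submitters' processing notes name bcl2fastq and builds rn5 and rn6, with no role; starts on chromosome 1 reach 290084085, past that chromosome's end in rn6, so rn5 was taken as the build. Coordinates follow the start column, and whether it counts from 0 or 1 is unknown. Aligner, methylation caller, trimming and duplicate removal are not given in the sources used here, and each could change a level. PCR reads without molecular identifiers are not independent molecules.

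The tables were joined by position, leaving out 422 cytosines of discordant context. Levels were recomputed from the counts in Python 3.11.15 (numpy 2.4.6, pandas 2.3.3, scipy 1.17.1, numba 0.67.0), with Wilson and Newcombe 95% intervals for counting error. Every shared CpG site had a 2-sided Fisher's exact test with Benjamini-Hochberg adjustment, a step tested on simulated counts first. Sites with a neighbouring CpG cytosine were given a strand from the pair; longer odd runs were left unassigned. Stretches are at least 4 sites of 1 strand with depth within 5% in each library. Sites named are the 6 with the widest difference among called sites, the deepest, the first and last, the nearest outside, CpGs with the widest summed difference, and runs of at least 5 called sites; others were chosen after their values were seen. The members, thresholds and marker lists were chosen with earlier results of these data known. Long non-coding RNA and miRNA tables were not used here. Alternatives were other read minimums, size thresholds, bounds, depth limits, averaging, and cytosines summed per CpG.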

Additional observations from a re-analysis of the deposited data

How the results depend on the processing

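Of 66 alternative values over the 3 windows, 53 stayed near the reported one and 13 moved. No difference in level changed sign. Some of the 53 could not move, so the tally does not measure robustness. On chromosome 14 a minimum of 20 reads and the depth limit kept the same 56 sites. Summing the cytosines of a CpG leaves the summed difference as it was. Moving the bounds by 5 kb added no site on chromosomes 14 and 1. Counts of calls in the opposite direction were 0 throughout. With both cytosines of a CpG summed, calls covered 30 of 30 CpGs on chromosome 14, 30 of 219 on chromosome 1 and 7 of 53 on chromosome 8, and the median difference was 39.5 points on chromosome 14 and -16.8 on chromosome 1. Some CpGs with 1 called cytosine fell under 25 points when summed, such as that at 76675749 with 21.3 points. A size threshold of 40 points left 21 called sites on chromosome 14, 11 on chromosome 1 and 5 on chromosome 8; one of 10 points gave 83 on chromosome 1. The chromosome 1 difference was -18.1 points without the deepest 1% of sites and -19.9 as an unweighted mean over sites. The chromosome 8 difference was 9.16 points as an unweighted mean and 5.78 with the bounds moved out by 5 kb. Read minimums of 20 or 30 changed no count by more than 1.5 times.

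No paired analysis was possible because each group had 1 library, and for the same reason no library was left out. Depth limits single sites most on chromosome 1, where 26 sites in B[a]P and 46 in control had under 20 reads. Animal, library and batch cannot be told apart from B[a]P.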

Other observations

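On chromosome 1, further CpG sites were listed in a single table and so are not among the 345. The 40 sites listed for B[a]P alone summed to 30.6% at depths of 10 to 38 reads, and the 17 listed for control alone to 52.6% at 10 to 13 reads; they are different positions and were not compared. The largest such stretches in B[a]P had 10 sites each, from 151966812 to 151966906 at 21.8% and from 151971934 to 151972053 at 37.6%. The largest in control had 11 sites, from 151968295 to 151968335 at 51.5%.

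On chromosome 8, isolated sites were raised in both libraries amid neighbours near 0%. Site 76675447 had 14.3% in B[a]P and 15.7% in control, site 76675679 had 6.49% in B[a]P and 6.5% in control, and site 76675923 had 12.9% in B[a]P and 14.6% in control. None of the 3 has a measured cytosine on the other strand of its CpG. The CpG at 76675491 and 76675492 was raised on both strands. Its plus cytosine was at 5.98% in B[a]P and 5.54% in control, and its minus cytosine at 14.3% in B[a]P and 10% in control. The cause was not tested.

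On chromosome 1, 1 cytosine outside CpG context stood far above the rest in both libraries: 151966634 had 13 of 56 reads methylated in B[a]P (23.2%) and 5 of 15 in control (33.3%).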
